A study of Homo sapiens with 8 samples.

Results

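The neurotrophin system of LX-2 cells was followed at the mRNA level through NGFR, BDNF, NTF3, NTRK2, NTRK3 and SORT1. These 6 genes were chosen from values of the comparison described here, and they were found by gene symbol among the 16796 genes of the count files. A row was matched for 4 of them, NGFR, BDNF, NTRK3 and SORT1, and NTF3 and NTRK2 are not analysed here. Because the choice used the same contrast, levels and fold changes of the 4 genes are given as a description, without a test. LX-2 is an immortalised line of human hepatic stellate cells with myofibroblastic features (MF-HSCs), so all libraries come from a single line. All cells grew in medium with 5% fetal bovine serum. Control cells received the vehicle DMSO, and OGTi cells received OSMI-1, an inhibitor of the O-GlcNAc transferase OGT, at 50 µM for 24 h. Each group had 4 libraries, described as biological replicates, and control and OGTi libraries of the same replicate number were treated as pairs.

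Neurotrophins are secreted growth factors that are made as longer proneurotrophins and then cleaved. Mature forms bind Trk receptor tyrosine kinases. BDNF and NTF4 products bind TrkB (NTRK2), and the NTF3 product binds TrkC (NTRK3). NGFR encodes p75NTR, a receptor of the tumour necrosis factor receptor family that has a death domain and no kinase, and that binds every neurotrophin. Sortilin, the SORT1 product, is a sorting receptor with a Vps10p domain, and it pairs with p75NTR to bind proneurotrophins. In liver, p75NTR is known as a surface marker of hepatic stellate cells.

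The counts were summed per gene, so transcripts from different start sites of a gene were pooled. No RefSeq start was available here for NGFR. For BDNF, SORT1 and NTRK3, the bases just before the RefSeq start on GRCh38.p14 are shown. Bases within exons of GENCODE 44 are left out. All 3 genes lie on the minus strand. The windows searched ran from 250 bases before to 50 bases after a start, and 8 windows matched these genes, 5 of BDNF, 2 of SORT1 and 1 of NTRK3. The printed parts are chr11:27722059-27722280, chr11:27720780-27721029 and chr11:27701634-27701871 for BDNF, chr1:109397919-109398168 for SORT1 and chr15:88256792-88256989 for NTRK3. Capitals mark matches to one of the motifs searched on both strands.
BDNF upstream start: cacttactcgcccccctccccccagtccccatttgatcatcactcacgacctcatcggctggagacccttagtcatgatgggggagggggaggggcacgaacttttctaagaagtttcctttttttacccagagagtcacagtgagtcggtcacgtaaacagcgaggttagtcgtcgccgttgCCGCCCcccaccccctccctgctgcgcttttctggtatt
BDNF second start: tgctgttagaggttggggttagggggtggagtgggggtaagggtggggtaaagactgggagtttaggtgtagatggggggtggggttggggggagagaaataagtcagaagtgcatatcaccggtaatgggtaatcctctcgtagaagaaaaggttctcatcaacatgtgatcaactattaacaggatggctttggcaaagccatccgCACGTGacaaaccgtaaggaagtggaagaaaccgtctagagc
BDNF inner start: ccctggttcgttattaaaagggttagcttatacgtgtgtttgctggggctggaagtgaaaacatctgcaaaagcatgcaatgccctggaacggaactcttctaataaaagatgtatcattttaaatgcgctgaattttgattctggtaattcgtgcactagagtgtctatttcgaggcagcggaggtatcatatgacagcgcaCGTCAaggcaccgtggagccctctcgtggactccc
SORT1 start: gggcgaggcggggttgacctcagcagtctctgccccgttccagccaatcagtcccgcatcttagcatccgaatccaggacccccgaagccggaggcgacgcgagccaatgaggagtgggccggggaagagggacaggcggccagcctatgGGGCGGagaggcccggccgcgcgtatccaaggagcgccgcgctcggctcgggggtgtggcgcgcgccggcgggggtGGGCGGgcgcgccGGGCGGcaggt
NTRK3 start: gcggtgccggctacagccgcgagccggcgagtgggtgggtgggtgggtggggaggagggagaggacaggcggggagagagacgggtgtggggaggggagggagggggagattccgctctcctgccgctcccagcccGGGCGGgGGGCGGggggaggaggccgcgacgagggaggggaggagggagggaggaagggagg

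The motifs were the cAMP response element (CRE, TGACGTCA), its core (TGACG, which a full CRE also contains), the GC box (GGGCGG), the E-box CACGTG, a TEAD motif (GGAATG), an AP-1 motif (TGANTCA) and an EGR motif (GCGGGGGCG). Positions are counted from the start as 0. The SORT1 window held GC boxes at -100, -24 and -11, and the NTRK3 window held GC boxes at -114 and -107. The upstream BDNF window held a GC box at -67 and another at 29, past the printed part. A further BDNF window, which is not printed, held GC boxes at -192 and -173. GC boxes occurred in 45.0% of the 35116 windows of this length in the RefSeq table. The second BDNF start had an E-box at -42, a motif held by 7.26% of windows. The inner BDNF start had a CRE core on the opposite strand at -47, a motif held by 24.6% of windows. No full CRE, TEAD, AP-1 or EGR match was found in the 8 windows, against 1.85%, 14.0%, 7.71% and 5.07% of all windows. A match describes letters only and marks no bound site.

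OGTi raised NGFR and lowered BDNF, SORT1 and NTRK3. All 4 genes met the threshold of the DESeq2 fit across all genes (q of 0.05 or lower), 1 upward and 3 downward, and 4 of 4 moved in the same direction in every pair. As background, 46.6% of the 14028 genes with a q met it, 22.7% upward and 24.0% downward. Normalized counts, which are counts divided by the library size factor, did not overlap between the groups for 3 of the 4 genes. This held for 38.0% of the 14895 genes tested. Nothing is read from these counts about the 4 genes, since the same contrast chose them. RNA was taken from whole cultures, so fewer cells of a kind and less RNA per cell cannot be told apart.

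**Figure D1:**
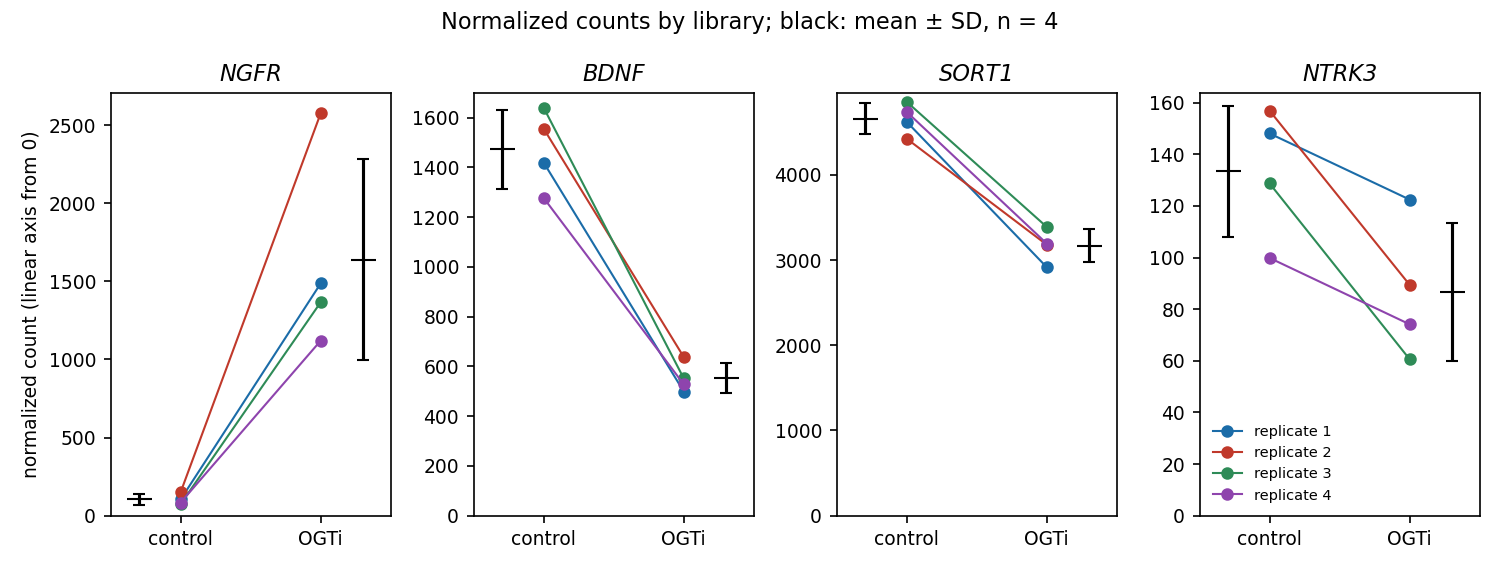
Normalized counts (linear axes from 0) of NGFR, BDNF, SORT1 and NTRK3 in control and OGTi libraries, with a line joining each replicate pair and black bars for mean ± SD (n = 4). NGFR rose from at most 151 to at least 1121, BDNF and SORT1 fell without overlap, and the groups of NTRK3 overlapped.

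NGFR (ENSG00000064300.9, chr17:49495293-49515008, plus strand, 6 exons in its MANE Select transcript) encodes p75NTR. Its normalized counts were 104, 151, 74.7 and 84.2 in control replicates 1 to 4. In OGTi replicates 1 to 4 they were 1488, 2577, 1367 and 1121. Every OGTi library lay above every control library, and the lowest OGTi value was 7.41 times the highest control value. Replicate 2 was the highest library in both groups. The means were 103.6 ± 34.1 and 1638 ± 644 (SD, n = 4 each).

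The log2 fold change of NGFR was 3.96 ± 0.13 (SE), which is 15.6-fold, with 14.3 to 17.1 spanned by 1 SE. Within pairs 1 to 4 the log2 ratios were 3.82, 4.08, 4.18 and 3.72, so the pairs lay closer together than the libraries of a group. Without the replicate block the SE of this change was 0.35. Of the 14895 genes tested, 17 had a larger log2 fold change. Among the 10994 genes averaging 100 normalized counts or more, 1 did. NGFR lay above 26.8% of the genes by mean count in control cells and above 74.2% in OGTi cells.

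**Figure D2:**
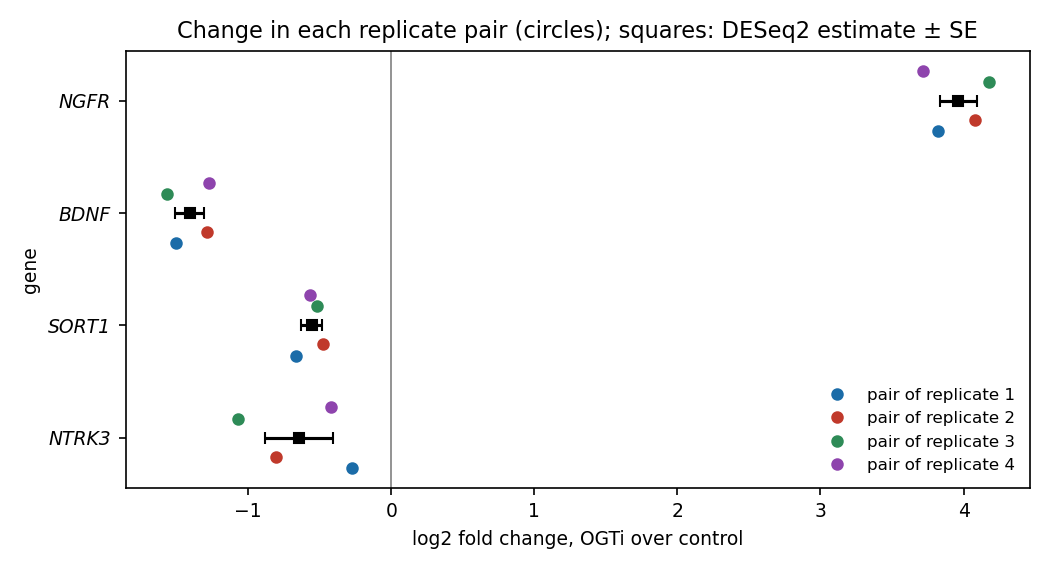
Log2 fold change of OGTi over control in each replicate pair (circles, colored by replicate) and as the DESeq2 estimate ± SE (squares) for NGFR, BDNF, SORT1 and NTRK3. The 4 pairs of NGFR lay between 3.72 and 4.18, and all pairs of the other genes lay below 0.

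SORT1 (ENSG00000134243.12, chr1:109309568-109397918, minus strand) encodes sortilin, the partner of p75NTR for proneurotrophins. Control replicates 1 to 4 had 4623, 4425, 4858 and 4740 normalized counts. OGTi replicates 1 to 4 had 2916, 3180, 3389 and 3193. The groups did not overlap, and the highest OGTi value was 0.766 times the lowest control value. The means were 4661 ± 185 and 3170 ± 194 (SD, n = 4 each). The log2 fold change was -0.56 ± 0.07 (SE), and the pairs gave -0.66, -0.48, -0.52 and -0.57. The spread between libraries was the smallest of the 4 genes, with a coefficient of variation of 3.96% in control and 6.12% in OGTi libraries. For NGFR these values were 32.9% and 39.3%.

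NTRK3 (ENSG00000140538.17, chr15:87859751-88256791, minus strand) encodes TrkC. It had 63 to 167 expected counts per library. Its normalized counts were 148, 157, 129 and 99.8 in control replicates 1 to 4 and 122, 89.4, 60.6 and 74.1 in OGTi replicates 1 to 4. OGTi replicate 1 lay above control replicate 4, so the groups overlapped. The means were 133.4 ± 25.3 and 86.6 ± 26.6 (SD, n = 4 each). The log2 fold change was -0.64 ± 0.24 (SE), with pairs at -0.27, -0.80, -1.08 and -0.42. Without replicate 2 (-0.59) or without replicate 3 (-0.51) NTRK3 no longer met the threshold. Counts per gene do not separate full-length TrkC from forms that lack the kinase.

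BDNF encodes brain-derived neurotrophic factor, a ligand of TrkB and p75NTR (ENSG00000176697.20, chr11:27654893-27722058, minus strand, 17 annotated transcripts). Control replicates 1 to 4 had 1419, 1556, 1640 and 1277 normalized counts. OGTi replicates 1 to 4 had 499, 638, 552 and 528. All OGTi libraries lay under all control libraries, and the highest OGTi value was 0.499 times the lowest control value. The means were 1473 ± 159 and 554 ± 60 (SD, n = 4 each). The log2 fold change was -1.41 ± 0.10 (SE), or 0.376-fold, and the pairs gave -1.51, -1.28, -1.57 and -1.27. Among the 10994 genes averaging 100 normalized counts or more, 145 had a lower log2 fold change. By mean count BDNF lay above 71.7% of the genes in control cells and above 49.5% in OGTi cells.

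NTF4, which encodes the other ligand of TrkB and was not among the chosen genes, had 0 to 7 expected counts per library, and no q was given to it.

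**Figure D3:**
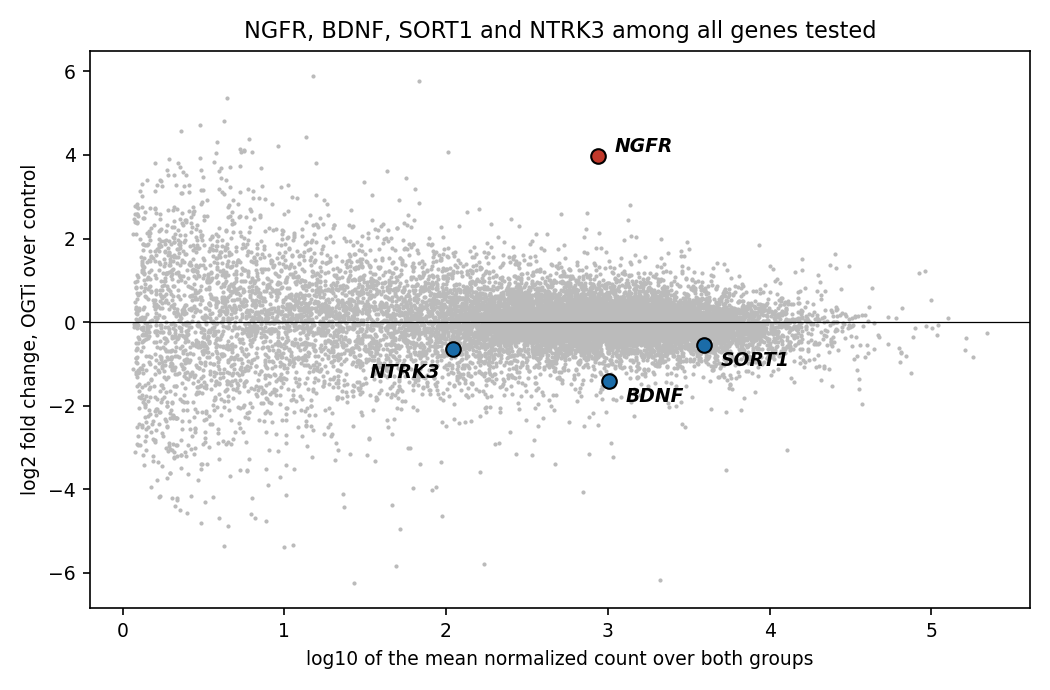
Log2 fold change of OGTi over control against the log10 mean normalized count for all genes tested (grey), with NGFR, BDNF, SORT1 and NTRK3 marked. NGFR at 3.96 stood apart from nearly all genes of similar count, while BDNF at -1.41, NTRK3 and SORT1 lay within the cloud.

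Levels were compared between genes only per length, as RPKM, which are counts per kilobase of the MANE Select transcript scaled to the library total. In control cells SORT1 had the highest level (24.7 ± 0.5), followed by BDNF (13.7 ± 1.5), NGFR (1.13 ± 0.40) and NTRK3 (0.25 ± 0.05; SD, n = 4 each). With MANE Select lengths, no neighbours in this order overlapped. In OGTi cells the order was NGFR (18.9 ± 7.3), SORT1 (17.9 ± 1.0), BDNF (5.47 ± 0.55) and NTRK3 (0.17 ± 0.05). The libraries of NGFR and SORT1 overlapped in OGTi cells, and BDNF lay under both and above NTRK3. These levels depend on the length chosen. With the median length of the protein-coding transcripts, which is 615 bases for SORT1 in place of 6990, SORT1 lay above NGFR in OGTi cells as well (202.9 and 35.0). The control libraries of NGFR (1.46 to 3.10) and NTRK3 (1.25 to 2.04) then overlapped.

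**Figure D4:**
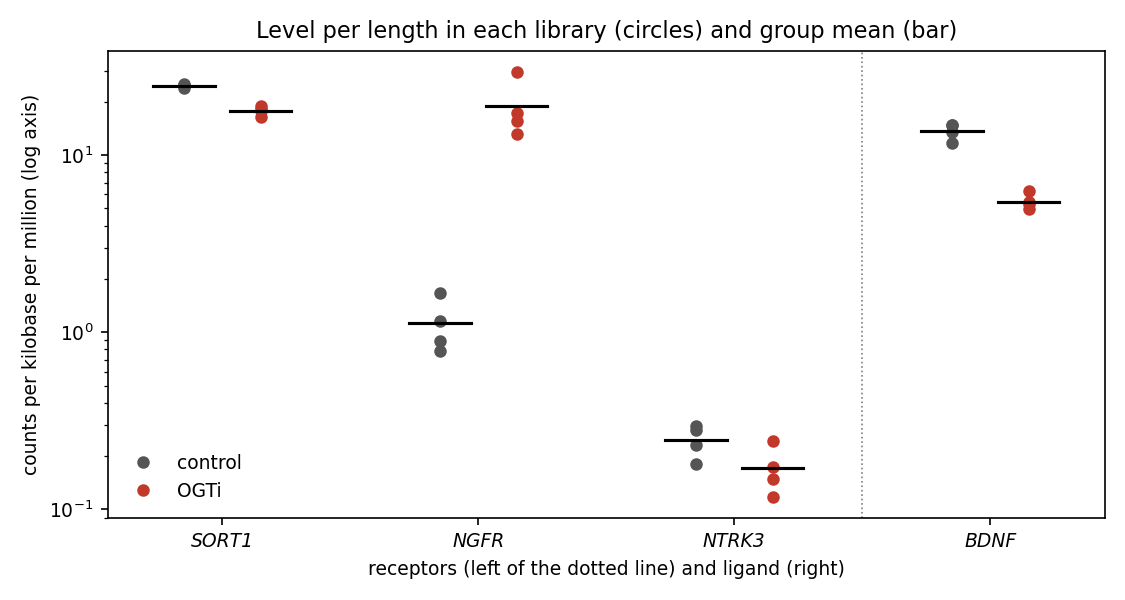
Level per length (RPKM, from counts per kilobase of MANE Select transcript, log axis) of NGFR, SORT1, NTRK3 and BDNF in each control and OGTi library (circles), with the group mean as a bar. NGFR moved from a mean of 1.13 to 18.9, next to SORT1 at 17.9, while NTRK3 stayed under 0.3.

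As a share of the summed level of NGFR, SORT1 and NTRK3, NGFR made up 4.34% ± 1.53 in control and 49.9% ± 9.0 in OGTi libraries (SD, n = 4 each). The range was 3.03% to 6.48% in control and 41.7% to 62.2% in OGTi libraries. The share of SORT1 went from 94.7% ± 1.7 to 49.6% ± 9.0, and that of NTRK3 from 0.95% ± 0.19 to 0.47% ± 0.17. Shares of raw counts, without length, gave 2.13% and 32.7% for NGFR. Median transcript lengths gave 0.740% and 14.5%, so the size of the share rests on the length and its direction does not.

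The 5 genes whose log2 counts followed NGFR most closely over the 8 libraries were MCOLN1, SPECC1, XRRA1, RNF19B and POR, with Pearson r of 0.996 to 0.999. MCOLN1 encodes a lysosomal cation channel and averaged 795 ± 68 (control) and 1633 ± 143 (OGTi) normalized counts. POR encodes the reductase that supplies electrons to cytochromes P450 and had 2575 ± 149 and 6913 ± 823. For deviations from the group means, the r of these 5 genes with NGFR was 0.922 to 0.978. The genes most like BDNF were GFRA1, CDKN1B, FSTL1, DIO2 and LHX9, with r of 0.996 to 0.998 and 0.889 to 0.928 for the deviations. GFRA1 encodes a co-receptor for the neurotrophic factor GDNF, and DIO2 encodes a deiodinase that activates thyroid hormone. All points share the libraries and the 2 groups, and an r over 0.95 was reached by 525 of 10993 genes for NGFR and by 583 for BDNF. These r values describe the libraries and carry no test.

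Around the receptors, 156 further genes were listed from general knowledge, with earlier results of these data known. The list of GDNF and other neurotrophic factor systems gave 14 of them. Of the 156 genes, 131 had a q. OGTi raised 35 (26.7%) and lowered 40 (30.5%), beside 22.7% and 24.0% of all genes with a q. Of these, 1 higher and 3 lower genes were from the GDNF list. The median log2 fold change of the listed genes tested was -0.05, beside 0.00 over all genes tested. The called genes were 57.3% of those with a q, beside 46.6% over all genes, and nothing particular to the lists is read from this.

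Other Vps10p receptors moved in both directions. SORL1, a relative of SORT1, fell from 95.1 ± 13.6 to 30.7 ± 3.0 normalized counts (log2 fold change of -1.63 ± 0.30, DESeq2 q of 3.75e-07). SORCS2, which also forms a receptor pair with p75NTR, rose from 7.58 ± 3.39 to 21.8 ± 6.2 (1.57 ± 0.62, DESeq2 q of 0.0286). The call of SORCS2 was lost without replicate 1 (1.32), replicate 2 (1.55) or replicate 3 (1.46). Of the co-receptors and myelin ligands of p75NTR, 4 had a q. RTN4, which encodes the Nogo protein, rose (0.23 ± 0.07, DESeq2 q of 0.00123). RTN4RL2, a Nogo receptor homologue, fell (-0.39 ± 0.12, DESeq2 q of 0.00368), but not past the threshold without replicate 4 (-0.26). The Nogo receptor gene RTN4R did not pass the test and had 307 ± 61 and 305 ± 99 normalized counts. TNFRSF19 had 351 ± 13 and 356 ± 17.

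Among 7 other receptors of the tumour necrosis factor receptor family, 2 rose and 0 fell by DESeq2 with the block, with a list median of 0.33. They were listed as death domain receptors, but EDA2R, whose change of 0.33 ± 0.20 was this median, has no death domain. Those that rose were TNFRSF10B, a receptor for the ligand TRAIL (0.83 ± 0.08, DESeq2 q of 2.28e-23), and TNFRSF21 (0.61 ± 0.10, DESeq2 q of 6.70e-09). TNFRSF25 went from 49.9 ± 11.5 to 28.7 ± 5.3 normalized counts with a DESeq2 q of 0.0595. It was called lower by DESeq2 without the block (-0.80) or with at least 10 counts in 4 libraries (-0.79), and by edgeR with the block (-0.79) or without it (-0.80). At an unadjusted p under 0.05 it was the single lower gene of the list. FAS had 85.7 ± 9.4 and 104.2 ± 20.9 normalized counts, and TNFRSF1A had 2969 ± 162 and 2731 ± 63. Neither passed the test.

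p75NTR is shed by ADAM17 or ADAM10 and then cut within the membrane by γ-secretase. All 8 genes of this list were called, 5 higher and 3 lower (median 0.34). ADAM17 rose (0.44 ± 0.10, DESeq2 q of 0.000106) and ADAM10 fell (-0.28 ± 0.08, DESeq2 q of 0.00227). The γ-secretase genes PSEN2 (0.93 ± 0.12), PSENEN (0.65 ± 0.11) and NCSTN (0.30 ± 0.09) rose, with DESeq2 q values from 8.75e-13 to 0.00362. APH1B (-0.39 ± 0.16) and APH1A (-0.22 ± 0.08) fell. The count of lower genes was 1 when any replicate pair was left out. APH1B lost its call without any 1 of the 4 replicates (-0.46 to -0.31). APH1A lost it without replicate 1, 2 or 4 (-0.24 to -0.14), and ADAM10 without replicate 3 (-0.21). NCSTN lost it without replicate 3 (0.20) or 4 (0.26).

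Of the enzymes that cleave proneurotrophins or activate plasmin, 2 rose, 1 fell and 4 did not pass the test (median -0.13, mean 0.10). The list had 2 lower genes without replicate 1, without the block and in edgeR with or without the block. PLAT, which encodes tissue plasminogen activator, rose from 1959 ± 306 to 4102 ± 1057 normalized counts (1.05 ± 0.10, DESeq2 q of 1.14e-23). The convertase gene FURIN fell (-0.31 ± 0.07, DESeq2 q of 6.68e-05). PCSK5, a further convertase gene named after its values were seen, rose from 17.1 ± 5.9 to 82.2 ± 35.9 (2.25 ± 0.36, DESeq2 q of 5.67e-09).

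Of 17 genes listed as adaptors or signalling partners of p75NTR, 6 rose, 7 fell and 4 did not pass the test (median 0.07, mean -0.04). BEX1 fell most, from 8410 ± 858 to 2964 ± 412 normalized counts (-1.51 ± 0.10, DESeq2 q of 1.25e-49), followed by KALRN (-0.72 ± 0.11) and RHOA (-0.57 ± 0.07). MAGEH1 rose most (1.07 ± 0.13, DESeq2 q of 2.58e-16), followed by TRAF4 (0.53 ± 0.11) and RIPK2 (0.41 ± 0.11). The relay of stress and death signals had 3 higher, 5 lower and 10 genes that did not pass. BCL2L11, which encodes the pro-apoptotic protein BIM, rose from 359 ± 34 to 1122 ± 77 (1.64 ± 0.11, DESeq2 q of 8.94e-50). CASP9 (0.96 ± 0.19) rose as well, and MAP3K1 (-0.96 ± 0.11), CDC42 (-0.67 ± 0.07) and RAC1 (-0.40 ± 0.08) fell. Without replicate 4 the list had 3 lower genes.

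The relay downstream of Trk receptors had 7 higher and 12 lower genes, and 18 that did not pass (median 0.02). NRAS, which encodes a small GTPase of this route, was among those that fell (-0.78 ± 0.08, DESeq2 q of 3.85e-22). PIK3R1, the regulatory subunit of PI3K, rose (1.10 ± 0.11, DESeq2 q of 1.04e-22), as did RPS6KA2 (0.72 ± 0.08) and the adaptor gene SHC1 (0.40 ± 0.07).

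Genes that neurotrophins are known to induce had 5 higher, 2 lower and 3 not called (median 0.73). JUNB rose from 464 ± 47 to 1201 ± 173 normalized counts (1.37 ± 0.12, DESeq2 q of 4.04e-30). The others that rose, named after their values were seen, were less abundant. ARC had a log2 fold change of 2.57 ± 0.35. NR4A2 went from 12.8 ± 7.5 to 53.0 ± 9.9, VGF from 36.9 ± 19.4 to 89.6 ± 36.9 and FOS from 54.1 ± 14.0 to 112.8 ± 22.8. EGR1 fell (-1.07 ± 0.23, DESeq2 q of 1.07e-05), and KLF10 fell (-0.49 ± 0.10, DESeq2 q of 1.78e-06). These genes respond to many other signals.

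Regulators that are known to act on BDNF or NGFR transcription had 2 higher, 5 lower and 6 not called (median -0.12). ARNT2, a partner of basic helix-loop-helix factors, fell from 1469 ± 82 to 269 ± 28 normalized counts (-2.45 ± 0.11, DESeq2 q of 5.84e-104). REST, a repressor of neuronal genes, fell (-0.51 ± 0.11, DESeq2 q of 1.59e-05), and EGR1 also belongs to this list. USF1 (0.39 ± 0.10, DESeq2 q of 0.00074) and SP4 (0.41 ± 0.17, DESeq2 q of 0.0334) rose. SP4 lost its call without replicate 1 (0.28), 2 (0.48) or 4 (0.31), and in edgeR without the block (0.39).

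**Figure D5:**
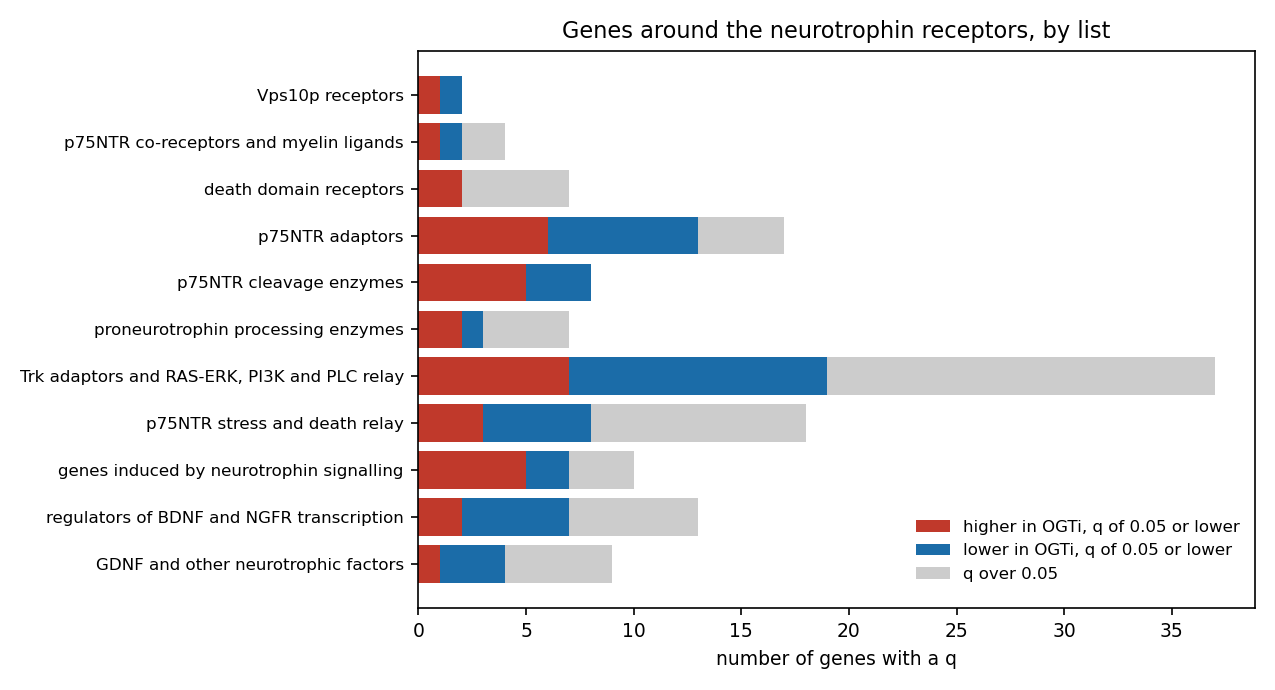
Number of genes with a q in each list of genes around the neurotrophin receptors, split into higher in OGTi, lower in OGTi (DESeq2 q of 0.05 or lower) and not called. All 8 cleavage enzymes were called, and the Trk relay had the most genes, with 7 higher and 12 lower.

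Markers of cell types were read beside these changes, since p75NTR and neurotrophins are also made by neurons and glia. The stellate genes COL1A1, VIM, TIMP1 and PDGFRB were abundant in every library (at least 38220, 79105, 11446 and 1099 normalized counts). Of these, COL1A1 (-0.95 ± 0.07) and PDGFRB (-0.90 ± 0.09) fell and TIMP1 rose (0.47 ± 0.10). ACTA2, which encodes smooth muscle actin and marks activated stellate cells, fell from 717 ± 312 to 200.1 ± 53.9 (-1.75 ± 0.16). SYP, which encodes synaptophysin, rose from 42.9 ± 10.1 to 277.7 ± 27.2 (2.71 ± 0.22). Other genes of the stellate list differed in level. LRAT and DES were near 0, and GFAP had 5 expected counts in all. LHX2 averaged 1375 (control) and 1293 (OGTi) normalized counts, with at least 1191 in every library. Of 15 stellate genes, 12 were tested, with 2 called higher and 3 lower, or 5 lower without replicate 1. The summed count of 5 neuron markers was 1081 to 1643 in control and 2803 to 4047 in OGTi libraries, of which TUBB3 made up 1373 ± 237 and 3191 ± 505. RBFOX3 was the other neuron marker that rose (12.7 ± 6.7 to 116.4 ± 65.8), and SNAP25, SYT1 and ELAVL3 had 26.5 and 18.3, 4.42 and 6.72, and 0.75 and 1.98. Of 3 tested glial markers, ERBB3 rose (1.40 ± 0.20). Their sum was 146 to 356 in control and 406 to 570 in OGTi libraries. The sum of 3 leukocyte markers was 2415 to 4033 in control and 5518 to 9311 in OGTi libraries. It was nearly all CD68 (3236 ± 659 and 7687 ± 1622), and the leukocyte marker PTPRC was at 7.64 and 2.84. The single tested marker of hepatocytes, SERPINA1, reached at most 74.0 normalized counts in a library, and that of cholangiocytes, KRT7, at most 141. The sum of 3 endothelial markers reached at most 91.1, and CDH5, one of them, fell (-3.31 ± 0.62). The part of these markers in the changes of NGFR and BDNF was not tested.

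The libraries held 24166756 to 28201215 counts. OGT mRNA, which encodes the inhibited enzyme, had 5636 ± 260 and 4146 ± 477 normalized counts (-0.45 ± 0.09, DESeq2 q of 1.48e-06).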

How the data were processed

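Polyadenylated RNA of 4 control and 4 OGTi LX-2 libraries was sequenced from both ends with a strand-specific protocol. The authors aligned reads to hg38 with Bowtie2 2.3.5.1 and deposited expected counts per gene from RSEM 1.3.1, which are estimated counts, not scaled for depth. Expected counts of the 4 genes with a row were whole numbers in all 8 libraries. The authors also deposited a table of their own comparison (log2 fold change, its error, a test statistic and p-values), which was not used. Antisense genes of the neurotrophin loci are not analysed here.

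Counts were rounded, genes with a total under 10 were left out, and 14895 genes were compared with the Wald test of DESeq2 1.42.0 in R 4.3.3. Replicate number was a block, as in the study's methods, and q is the Benjamini-Hochberg adjusted p-value, with a threshold of 0.05. The pairing was checked by the correlation of deviations from group means across 10994 genes, which was 0.372, 0.391, 0.165 and 0.327 for pairs 1 to 4. Control replicate 3 was closer to OGTi replicate 4 (0.343). Genes are not independent, and p-values measure the spread between these cultures of one line. Pair ratios and likeness used log2 of the normalized count plus 1. Both DESeq2 and edgeR were tested on simulated data in which few genes changed, all of them abundant and by large amounts. Small changes and low counts were not covered by this. Positions, exons and lengths came from GENCODE 44.

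The 6 genes and all lists were chosen with earlier results of these data known. Named genes were the members, NTF4 and OGT, any gene of a list of 8 or fewer, up to 3 called genes in each direction from longer lists (mean of at least 100 normalized counts, largest change), and the 5 genes most like NGFR and BDNF. Alternatives covered the block, edgeR, TMM scaling, the filter, each replicate pair, transcript length, pseudocount and rank correlation. Some genes of the lists entered the counts and sums per list and are not reported here by name.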

Additional observations from a re-analysis of the deposited data

Results flagged for a closer look

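The NTF4 count of OGTi replicate 2 stood apart from the other OGTi libraries, with 7.03 normalized counts against 0 to 0.961. The gap exceeded the 95% critical value of Dixon's test for 4 samples. It was the 1 such value among 21 groups of 4 values tested, and chance gives about 1 in 20. The library held 7 expected counts of NTF4.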

How the results depend on the processing

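The replicate block changed no direction of the 4 genes. Without the block the log2 fold changes were 3.98 for NGFR, -1.41 for BDNF, -0.62 for NTRK3 and -0.56 for SORT1. Over 10 alternatives NGFR ranged from 3.90 to 4.03, BDNF from -1.46 to -1.36, SORT1 from -0.58 to -0.52 and NTRK3 from -0.78 to -0.51. NTRK3 met the threshold in 8 of the 10. Calls across all genes ranged from 5127 without replicate 2 to 7074 with edgeR and the block, beside 6541. Called genes of the lists ranged from 30 to 36 higher and from 34 to 42 lower. For 126 further genes (listed genes, markers and OGT among them), 1201 of 1257 values kept their side of the threshold, 49 were no longer past it and 7 came past it, and 0 called values changed sign.

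Levels of NGFR, NTRK3 and SORT1 changed with transcript length. Median lengths gave levels of 2.09 (control) and 35.0 (OGTi) for NGFR, 1.71 and 1.18 for NTRK3, and 280.2 and 202.9 for SORT1. The receptor shares were then 0.740% and 14.5% for NGFR and 98.7% and 85.0% for SORT1, and that of NTRK3 was 0.601% in control cells. This alternative for the shares was added after seeing the data. Raw counts gave 2.13% and 32.7% for NGFR, 2.73% and 1.80% for NTRK3, and 65.5% for SORT1 in OGTi cells. Median lengths include short partial transcripts. Depth limits NTF4, with at most 7 expected counts per library.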

Other observations

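In the list of the GDNF system and other neurotrophic factors, 1 gene was called higher, 3 lower and 5 not, beside 46.6% of all genes called (list median log2 fold change of -0.41, beside 0.00 over all genes tested). GFRA1, a co-receptor for GDNF, fell from 7037 ± 1045 to 1662 ± 233 normalized counts (-2.08 ± 0.07, DESeq2 q of 1.96e-170, lower in 4 of 4 pairs). GDNF itself fell from 264 ± 95 to 104 ± 40 (-1.37 ± 0.19, DESeq2 q of 2.66e-12), and the cytokine gene LIF fell from 162 ± 45 to 62.4 ± 33.4 (-1.50 ± 0.25, DESeq2 q of 3.31e-08). MANF, which encodes a secreted protein of the endoplasmic reticulum, rose from 1717 ± 244 to 2869 ± 234 (0.75 ± 0.09, DESeq2 q of 5.70e-17).

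Of the nearest tested genes on each side of the members, read after the data were seen, some are given here. Those beside NTRK3 are not reported here. On chromosome 17, ZNF652, 133 kb before NGFR, fell (-0.93 ± 0.15, DESeq2 q of 2.15e-09). PHOSPHO1, 265 kb before NGFR, rose from 17.8 ± 10.5 to 65.5 ± 14.2 normalized counts (1.98 ± 0.43, DESeq2 q of 1.70e-05). NXPH3, 60.9 kb after NGFR, had 55.4 ± 14.3 and 63.9 ± 11.5. Beside SORT1 on chromosome 1, PSRC1 (26.4 kb before it) and CELSR2 (33.8 kb before it) fell by 0.68 and 0.67 on the log2 scale (DESeq2 q of 2.80e-11 and 7.25e-17). PSMA5, 1.12 kb past the other end of SORT1, rose (0.36 ± 0.09, DESeq2 q of 9.58e-05). Beside BDNF on chromosome 11, LIN7C had 377 ± 43 and 385 ± 39 normalized counts and LGR4 had 795 ± 109 and 884 ± 36. KIF18A, 299 kb after BDNF, fell (-0.50 ± 0.11, DESeq2 q of 3.17e-05).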
